A study of Mus musculus with 8 samples.

Results

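The genes described here are 8 members of the mouse Ms4a cluster that were listed as macrophage genes: *Ms4a4a*, *Ms4a4b*, *Ms4a4c*, *Ms4a6b*, *Ms4a6c*, *Ms4a6d*, *Ms4a7*, and *Ms4a8a*. Whether macrophages were the source of the counts of each gene was not tested. They were picked by symbol, with their FCGR4+ against FCGR4- values in these libraries already known, and were found in the deposited counts by Ensembl identifier, 8 of 54146 genes. All 8 had at least 10 counts in at least 4 libraries and were among the 17095 genes tested. The data are 8 bulk RNA-Seq libraries, 1 of FCGR4+ and 1 of FCGR4- macrophages flow-sorted from the epididymal white adipose tissue (eWAT) of each of 4 mice. FCGR4 is an activating receptor for the constant part of IgG, and the study compared macrophages that carry it with those that do not. All 4 mice were C57Bl6, ate a diet high in fat and cholesterol (HFHC) freely for 24 weeks, and then had their food cut by 30% during 2 weeks of stCR (caloric restriction over a short term). The libraries therefore hold no mice without the diet or without stCR. The study's methods describe male mice, and the labels give neither the age nor the way in which the mice were made deficient in the LDL receptor, if they were. Mice 1 and 2 carry animal IDs that start with S395, and mice 3 and 4 carry IDs that start with S491. What this prefix stands for is not given in the sources used here.

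MS4A proteins cross the membrane several times, with both ends in the cytoplasm, and many of them associate with immune receptors and change how these signal. The family includes CD20 (*Ms4a1*) on B cells and the beta chain of the high-affinity IgE receptor (*Ms4a2*) on mast cells, and other members are known from macrophages, where MS4A4A acts with the beta-glucan receptor dectin-1. In mice, the *Ms4a4* and *Ms4a6* genes have been copied several times, so that neighboring genes have very similar sequences.

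The 8 genes lie on chromosome 19 of mm10 within 537.4 kb, which hold 28 annotated genes, 19 of them tested. *Ms4a8a* (ENSMUSG00000024730) spans 11067471 to 11081102, *Ms4a7* (ENSMUSG00000024672) spans 11321039 to 11336146, and *Ms4a6d* (ENSMUSG00000024679) spans 11586604 to 11604849, all 3 on the minus strand. The other 5 lie between *Ms4a7* and *Ms4a6d* on the plus strand. These are *Ms4a4a* (ENSMUSG00000101389) from 11375523 to 11392790, *Ms4a4c* (ENSMUSG00000024675) from 11404770 to 11427246, and *Ms4a4b* (ENSMUSG00000056290) from 11443553 to 11463549. *Ms4a6c* (ENSMUSG00000079419) follows from 11469366 to 11482192, and *Ms4a6b* (ENSMUSG00000024677) from 11516512 to 11531256.

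The closest copies are *Ms4a4b* and *Ms4a4c*, whose coding sequences are 91.7% identical, against 49.4% for the least similar of the 28 pairs. Next are *Ms4a6b* and *Ms4a6d* (80.6%), *Ms4a6b* and *Ms4a6c* (75.7%), and *Ms4a6c* and *Ms4a6d* (69.7%). Since *Ms4a4b* and *Ms4a4c* are the closest pair in sequence and differ in level and pattern, as described below, the bases upstream of their RefSeq start sites are shown (GRCm38.p6, plus strand, 5′ to 3′). *Ms4a4b* is shown from chr19:11443308-11443552 and *Ms4a4c* from chr19:11407411-11407660. Capitals mark runs of at least 12 bases that occur in both, and the last capital stretch of *Ms4a4b* joins a run of 20 and a run of 12 bases that a single base separates in *Ms4a4c*.
Ms4a4b: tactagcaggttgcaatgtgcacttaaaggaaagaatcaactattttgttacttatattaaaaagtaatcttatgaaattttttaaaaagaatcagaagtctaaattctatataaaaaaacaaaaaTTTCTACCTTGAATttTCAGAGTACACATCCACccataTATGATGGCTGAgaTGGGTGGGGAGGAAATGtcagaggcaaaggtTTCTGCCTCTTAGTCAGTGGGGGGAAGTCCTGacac
Ms4a4c: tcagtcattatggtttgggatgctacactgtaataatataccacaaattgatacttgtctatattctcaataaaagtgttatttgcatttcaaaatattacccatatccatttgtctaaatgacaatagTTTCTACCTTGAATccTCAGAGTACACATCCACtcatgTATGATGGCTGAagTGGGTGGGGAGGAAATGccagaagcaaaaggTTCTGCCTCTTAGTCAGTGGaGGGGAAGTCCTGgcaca
The shared runs, 92 bases in all, lie in the part nearest to the start site, and the bases further upstream hold no shared run of that length.

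RefSeq promoters were found for 7 of the 8 genes, 8 promoters in all because *Ms4a7* has a pair of them, and *Ms4a6d* had no entry. The 250 bases upstream of each start were searched on both strands for 5 short motifs. The interferon-stimulated response element (GAAA and GAAA with 2 bases of any kind between them) had no match in the 8 promoters, and 2.98% of 32851 promoters hold one. The shorter AANNGAAA of interferon regulatory factors, which also lies within the longer motif, matched in *Ms4a4b*, *Ms4a6c*, and the *Ms4a7* promoter that starts further downstream, where 21.3% of all promoters hold it. TGANTCA of AP-1 matched in *Ms4a8a* and in that same *Ms4a7* promoter (6.75% of all). TTCNNNGAA (GAS, 7.02% of all) and GAGGAAGT (PU.1, 2.44% of all) had no match. These matches describe letters in a short window and were not tested against the levels.

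Levels are given as normalized CPM, that is, counts divided by each library's effective size from edgeR's TMM factors. Total counts were between 35992794 and 66856746 per library, so that 3 counts, taken as the floor, correspond to at most 0.0883 normalized CPM, far below every value of the 8 genes. The gene of the sorted protein, *Fcgr4*, was higher in FCGR4+ macrophages in 4 of 4 mice (log2 difference 1.61 with a standard error of 0.173, adjusted P = 0.0162 with edgeR's quasi-likelihood test). All libraries held macrophage markers such as *Adgre1* (F4/80) at 684 to 2386 and *Cd68* at 1331 to 2238 normalized CPM. Markers of other cell types were mostly lower in FCGR4+ libraries. The summed mast cell and basophil markers were 14.5 to 30.5 normalized CPM there and 389 to 2123 in FCGR4- libraries, and the summed T and NK cell markers were 5.06 to 15.99 and 22.8 to 80.4. In bulk samples, fewer cells of a type and less RNA per cell cannot be told apart.

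Together, the 8 genes took up 0.117% to 0.397% of the normalized counts of a library. Per kilobase of exon, *Ms4a6d* and *Ms4a4a* were the highest in both populations, at 373 ± 194 and 362 ± 172 normalized CPM per kb in FCGR4+ macrophages (SD, n = 4) and at 267 ± 109.7 and 408 ± 234 in FCGR4- macrophages (SD, n = 4). *Ms4a4c* (184 ± 204), *Ms4a7* (140.6 ± 39.8), *Ms4a6c* (102 ± 48.8), and *Ms4a6b* (87.3 ± 45.9) followed in FCGR4+ macrophages (SD, n = 4). Among these 6, no gene was separated from the next by more than the larger SD. *Ms4a8a* (21.9 ± 5.24) and *Ms4a4b* (2.63 ± 2.09) came last (SD, n = 4), each below the gene before it in 4 of 4 FCGR4+ libraries and by more than either SD. In FCGR4- macrophages the order was the same except that *Ms4a4a* stood above *Ms4a6d* in 4 of 4 libraries. There, *Ms4a6d* stood above *Ms4a4c* by more than either SD, and *Ms4a4c* (128 ± 134) was above *Ms4a7* (80.4 ± 19.7) in 2 of 4 libraries. The value of *Ms4a6c* per kb is set by the whole exon length, although 53.1% of its exon bases overlap exons of *BE692007* on the other strand, where the authors' counting assigned no read pair. The exon length joins all annotated exons of a gene, from 836 bases for *Ms4a4a* to 5274 for *Ms4a4b*, and the order depends on it. Without division by length, *Ms4a6d* and *Ms4a7* had the highest means, at 648 and 626 normalized CPM in FCGR4+ and at 464 and 358 in FCGR4- macrophages. *Ms4a4a* had a mean of 303 in FCGR4+ and of 341 in FCGR4- macrophages.

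The comparison of FCGR4+ with FCGR4- macrophages is a description for these 8 genes, since it was used to choose them. *Ms4a8a*, *Ms4a7*, *Ms4a6b*, *Ms4a6c*, and *Ms4a6d* had higher values in FCGR4+ cells in 4 of 4 mice, a pattern that 8.38% of all genes showed. *Ms4a4c* was higher in 3 of 4 mice, *Ms4a4a* was higher in 1 of 4, and *Ms4a4b* was lower in FCGR4+ cells of both S395 mice and slightly higher in both S491 mice. Opposite signs in the prefixes, however small, occurred in 17.0% of all genes. None of the 8 passed an adjusted P of 0.1 in edgeR's paired fit across all genes, a threshold that 1.27% of all genes passed (0.0819% as higher and 1.19% as lower). At an unadjusted P of 0.05 in edgeR, 6 of the 8 passed, all 6 higher (9.77% of all genes, 3.1% as higher), and DESeq2 with the same paired model called 5, all higher (5.99% of all genes, 1.12% as higher). Because the members were chosen on this contrast, nothing is read from these counts. The median log2 difference of the 8 genes was 0.42, beside -0.0025 for all genes tested.

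**Figure D1:**
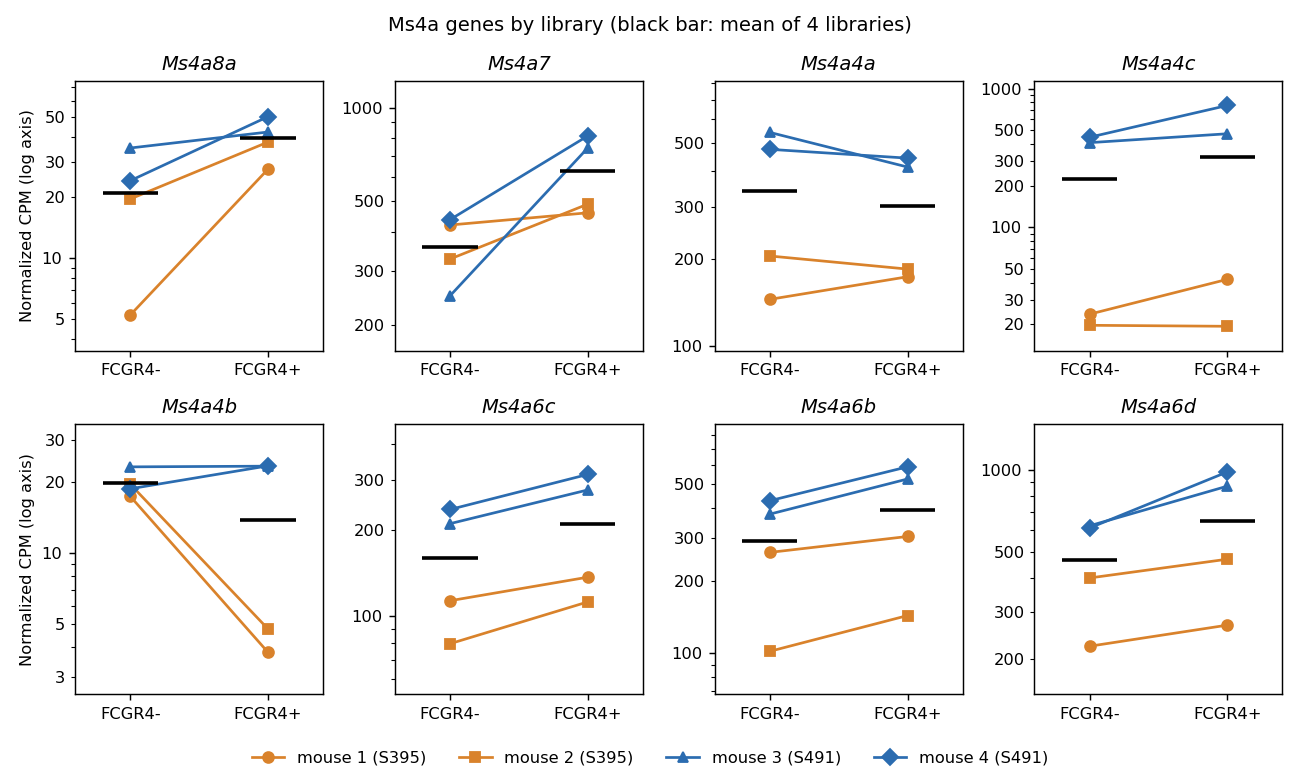
Normalized CPM (log axis) of the 8 Ms4a genes in FCGR4- and FCGR4+ libraries, 1 panel per gene, with lines joining the libraries of 1 mouse, orange for the S395 and blue for the S491 mice, and black bars for the mean of 4 libraries. For *Ms4a4c*, the S491 mice sit at 408 to 757 and the S395 mice at 19.4 to 42.2, and for *Ms4a4b* the FCGR4+ libraries of the S395 mice, at 3.81 and 4.78, sit below the other 6.

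*Ms4a8a* is known from alternatively activated and tumor-associated macrophages. It was at 27.6, 37.6, 42.1, and 50.2 normalized CPM in FCGR4+ libraries of mice 1, 2, 3, and 4, and at 5.25, 19.7, 35.1, and 24.2 in their FCGR4- libraries. The populations overlapped, with the FCGR4- library of mouse 3 above the FCGR4+ library of mouse 1, and every mouse had the higher value in its FCGR4+ cells. The log2 difference was 1.14 (standard error 0.324), from 0.26 in mouse 3 to 2.39 in mouse 1, and 0.75 without mouse 1.

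*Ms4a7* is a marker of mature tissue macrophages. It was at 459.7, 490.1, 742, and 811 normalized CPM in FCGR4+ libraries of mice 1 to 4, and at 420.0, 327, 249, and 437 in their FCGR4- libraries. All FCGR4+ libraries were above all FCGR4- libraries, which held for no other member and for 0.883% of all tested genes. The log2 difference was 0.79 (standard error 0.233), from 0.13 in mouse 1 to 1.58 in mouse 3, and 0.52 without mouse 3.

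Among the *Ms4a6* genes, *Ms4a6d*, whose protein is known to associate with the complement receptor VSIG4, was at 267, 468, 872, and 984 normalized CPM in FCGR4+ libraries of mice 1 to 4 and at 223, 399, 622, and 611 in FCGR4- libraries. Its log2 difference was 0.42 (standard error 0.138), from 0.23 to 0.69 over the 4 mice. The mice differed more from each other than the populations did, so that both libraries of mouse 1 lay below those of the other mice.

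*Ms4a6b*, also known from T cells, was at 305, 143.5, 527, and 592 normalized CPM in FCGR4+ libraries of mice 1 to 4 and at 262, 102, 377, and 428 in FCGR4- libraries. *Ms4a6c* was at 136, 112, 276, and 313 in FCGR4+ libraries and at 113, 79.7, 210.2, and 236 in FCGR4- libraries. For both genes, mouse 2 had the lowest values and mouse 4 the highest of its population. The log2 difference was 0.41 (standard error 0.127) for *Ms4a6b* and 0.39 (standard error 0.123) for *Ms4a6c*, with a range over the 4 mice of 0.22 to 0.49 and of 0.27 to 0.49. The antisense gene *BE692007*, which overlaps *Ms4a6c*, had a log2 difference of 0.32 (standard error 0.200), and the counting did not use strand. The transcripts of *Ms4a6c* share 51.4% of their 50-base words with other genes, mostly *BE692007*.

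Among the *Ms4a4* genes, *Ms4a4a*, the mouse gene of the dectin-1 partner, was at 173, 184, 412, and 442 normalized CPM in FCGR4+ libraries of mice 1 to 4 and at 145, 204, 542, and 474 in FCGR4- libraries. Its log2 difference was -0.10 (standard error 0.148), and only mouse 1 had the higher value in FCGR4+ cells. *Ms4a4c*, which is known to be induced by interferons, was at 42.2, 19.4, 473, and 757 in FCGR4+ libraries and at 23.7, 19.7, 408, and 447 in FCGR4- libraries. Its log2 difference between the populations was 0.45 (standard error 0.182), small beside the distance between mice 1 and 2 and mice 3 and 4.

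*Ms4a4b* was first described in T cells. It was at 3.81, 4.78, 23.4, and 23.4 normalized CPM in FCGR4+ libraries of mice 1 to 4, and at 17.4, 19.6, 23.2, and 18.7 in FCGR4- libraries. The FCGR4+ libraries of mice 1 and 2 were thus low, and the other 6 libraries lay close together. The per-mouse log2 difference was -2.18 and -2.03 in mice 1 and 2 and 0.01 and 0.32 in mice 3 and 4, and the fitted difference of -0.96 (standard error 0.480) describes neither pair of mice. The summed T and NK cell markers were lower in the FCGR4+ library of every mouse, at 11.6 against 67.8 in mouse 1, 15.99 against 80.4 in mouse 2, 15.9 against 55.8 in mouse 3, and 5.06 against 22.8 in mouse 4. Of the 11 such markers tested, 8 passed the threshold as lower in FCGR4+ cells and 0 as higher, and their part in the level of *Ms4a4b* was not tested. The counting entered a pair with several mapping places at every one of them, and 7.73% of the 50-base words of *Ms4a4c* occur in *Ms4a4b*. That share of the *Ms4a4c* level would come to 1.496 to 3.26 normalized CPM in S395 libraries and to 31.6 to 58.5 in S491 libraries. The latter is above the whole level of *Ms4a4b* there, so the share of words does not measure the share of pairs counted at both genes. How much of the *Ms4a4b* counts in the S491 mice comes from its copy was not tested.

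**Figure D2:**
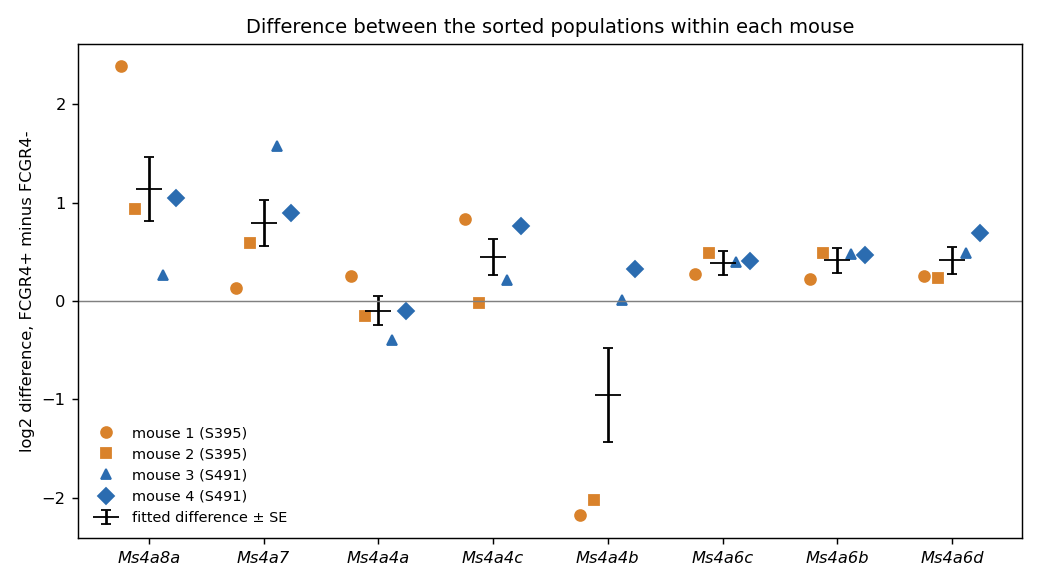
The log2 difference FCGR4+ minus FCGR4- of the 8 Ms4a genes in each mouse (symbols, orange for S395 and blue for S491 mice) with the fitted difference ± standard error in black. The *Ms4a6* genes lie above 0 in 4 of 4 mice, and *Ms4a4b* lies at -2.18 and -2.03 in the S395 mice and at 0.01 and 0.32 in the S491 mice.

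For 6 of the 8 genes, a larger share of the variation followed the animal ID prefix than the population, as for 62.1% of all tested genes. In these 6, the prefix share was also the largest of all the shares described next, which was not counted over all genes. The sum of squares of log2 normalized CPM over the 8 libraries was divided into prefix, mouse within prefix, population, and the rest. The prefix took up 96.7% for *Ms4a4c*, 94.9% for *Ms4a4a*, 86.0% for *Ms4a6c*, 72.9% for *Ms4a6d*, and 66.0% for *Ms4a6b*, where the median of all tested genes was 21.1%. It took up 42.9% for *Ms4a4b*, 28.1% for *Ms4a8a*, and 6.65% for *Ms4a7*. Population took up the largest share for *Ms4a7* (57.4%) and *Ms4a8a* (36.6%). The median over all genes was 9.49%, but nothing is read from this, because the population contrast was used to choose the genes. The 8 libraries share mice and prefixes, so these shares are a description.

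**Figure D3:**
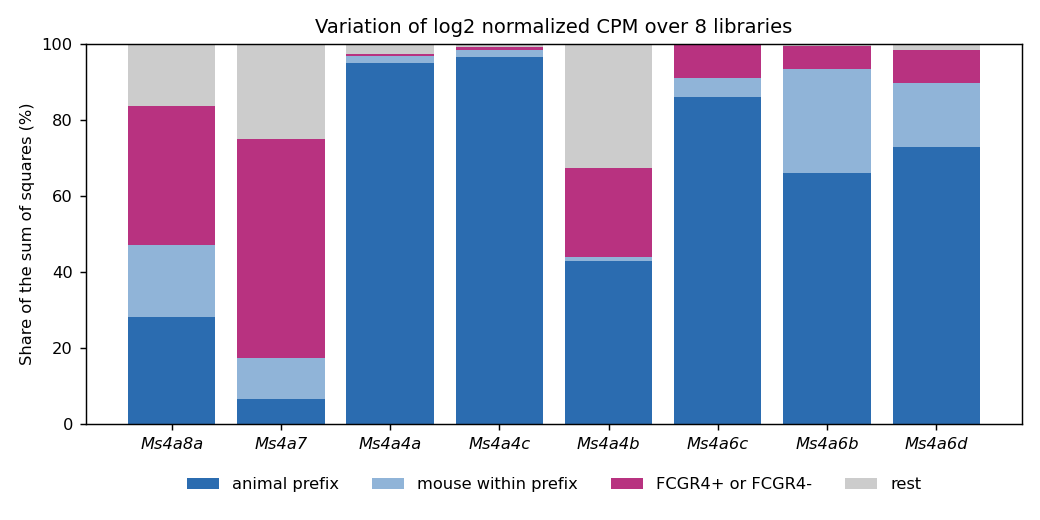
Shares in percent of the sum of squares of log2 normalized CPM of the 8 Ms4a genes over 8 libraries, stacked for animal prefix, mouse within prefix, sorted population, and the rest. The prefix bar reaches 96.7% for *Ms4a4c* and 6.65% for *Ms4a7*, whose population bar is 57.4%.

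The difference between the prefixes was not used to choose the genes, and it was tested on counts summed over the 2 libraries of each mouse, 2 mice against 2, with edgeR's quasi-likelihood test over all genes. This comparison was added after the values had been seen. *Ms4a4c* passed the threshold, with a log2 difference of 4.32 (standard error 0.343, adjusted P = 0.0815), a 19.96-fold higher level in the S491 mice. All 4 S491 libraries, at 408 to 757 normalized CPM, were above all 4 S395 libraries, at 19.4 to 42.2. It was 1 of 28 genes called, all higher in the S491 mice (0.164% of all genes). With a mouse left out, 2 mice stood against 1 and no gene passed in any of the 4 fits, while the log2 difference of *Ms4a4c* stayed between 4.01 and 4.71. It also did not pass with library size alone (4.33, adjusted P = 0.114 in edgeR) or in FCGR4+ libraries alone (4.32, adjusted P = 0.148).

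At an unadjusted P of 0.05, 6 of the 8 passed in edgeR, all higher in the S491 mice (9.17% of all genes as higher). The 7 genes besides *Ms4a4c* did not pass after adjustment, and had higher fitted levels in the S491 mice. The log2 difference was 1.43 (standard error 0.191, adjusted P = 0.178 by edgeR) for *Ms4a4a* and 1.25 (0.397, adjusted P = 0.258) for *Ms4a6b*, where it was 1.92 without mouse 1 and 0.80 without mouse 2. It was 1.23 (0.185, adjusted P = 0.215) for *Ms4a6c* and 1.17 (0.333, adjusted P = 0.245 by edgeR) for *Ms4a6d*. These 4 genes and *Ms4a4c* had no overlap between the prefixes, as was the case, in the same direction, for 8.49% of all genes. The mean of *Ms4a6d*, for example, was 339.6 in S395 and 772 normalized CPM in S491 libraries.

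*Ms4a4b* had a log2 difference of 1.03 (standard error 0.166, adjusted P = 0.218 by edgeR) between the prefixes, which was 2.45 in FCGR4+ and 0.20 in FCGR4- libraries. *Ms4a8a* (0.70, standard error 0.342) and *Ms4a7* (0.38, standard error 0.179) had the lowest values in this fit, but that of *Ms4a8a* was 1.27 in FCGR4- libraries alone, 0.29 without mouse 1, and 1.26 without mouse 2. The difference of *Ms4a7* was 0.71 in FCGR4+ and -0.10 in FCGR4- libraries alone. DESeq2 called 6 of the 8 genes as higher in the S491 mice, all but *Ms4a8a* and *Ms4a7*, where it called 6.22% of all genes as higher and 10.5% in all. In simulated data this DESeq2 fit called 218 genes of which 117 were unchanged, and edgeR called 94 of which 28 were unchanged.

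**Figure D4:**
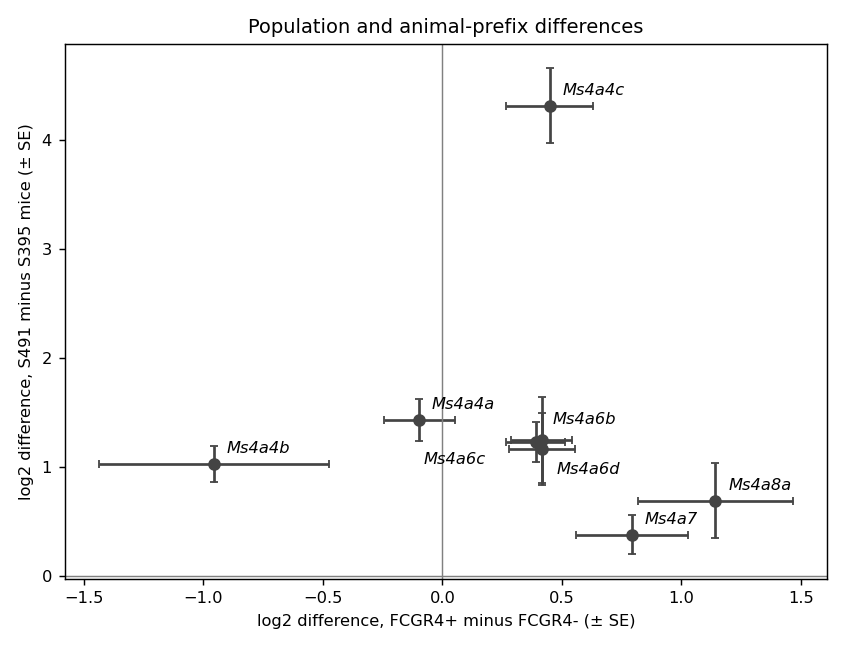
Fitted log2 difference FCGR4+ minus FCGR4- (horizontal) against that of S491 minus S395 mice (vertical) for the 8 Ms4a genes, with bars of ± 1 standard error. *Ms4a4c* stands at 4.32 on the vertical axis and the other 7 at 0.38 to 1.43, while *Ms4a7* and *Ms4a8a* are furthest to the right.

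All 8 of the classical monocyte markers listed had higher fitted levels in the S491 mice, 2 passed the threshold, and their summed level was 754 to 1472 normalized CPM in S395 libraries and 2845 to 4740 in S491 libraries. *Ly6c2*, the gene of the Ly6C surface protein of these monocytes, was at 10.4 to 34.6 in S395 and at 314 to 458 in S491 libraries. *Plac8* was at 6.03 to 39.5 and at 301 to 544. None of the 8 markers was at 0 in any library. Between the populations, 2 of these markers were called lower and 0 higher in FCGR4+ cells, and 2 of the 8 had higher fitted levels there. The summed macrophage markers, mostly *Lyz2*, overlapped between the prefixes (27953 to 54106 in S395 and 22343 to 30097 in S491 libraries), but 2 single ones did not. *Fcgr1* was at 76.7 to 154.5 in S395 and at 294 to 532 in S491 libraries, and *Mertk* at 77.3 to 150.8 and at 30.8 to 44.5. In the fibroblast, neutrophil, and mast cell and basophil lists 0 markers passed, with 8 of 8 fibroblast, 6 of 7 neutrophil, and 1 of 8 mast cell and basophil markers higher in the S491 mice by fitted level (median log2 differences 0.90, 1.49, and -1.91), although their sums overlapped between the prefixes. The same held for the T and NK cell list, with 1 of 11 higher (median -0.79), and the B cell list, with 5 of 6 higher (median 0.34). The part of these markers in the prefix difference of the Ms4a genes was not tested, and the prefix and the mice that carry it cannot be told apart.

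Whether the FCGR4+ against FCGR4- difference itself varied with the prefix was tested as an interaction. No gene passed the threshold in edgeR (0% of all genes), 13.8% had an unadjusted P under 0.05, and DESeq2 called 5.72%. For *Ms4a4b* the difference was 2.28 higher on the log2 scale in the S491 mice (standard error 0.276, adjusted P = 0.303 by edgeR). It was 0.88 (standard error 0.304, adjusted P = 0.336) for *Ms4a7* and -0.999 (0.542, adjusted P = 0.457 by edgeR) for *Ms4a8a*, and between -0.30 and 0.34 for the other 5. In simulated data this edgeR test recovered 45% of genes changed 4-fold and 6% of those changed 2-fold.

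Over the 8 libraries, the closest patterns among the members were those of *Ms4a4c* and *Ms4a6c* (Pearson r = 0.97 on log2 normalized CPM), *Ms4a6b* and *Ms4a6c* (0.94), and *Ms4a4a* and *Ms4a4c* (0.94). *Ms4a4b* and *Ms4a4c*, the closest pair in sequence, had r = 0.59, and *Ms4a7* had at most 0.52 with any other member. All these values are a description over 8 libraries from 4 mice, which share mouse and prefix.

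Among all tested genes, the 3 most like *Ms4a4c* were *Xaf1* (r = 0.99, Spearman rho = 0.98), *Rtp4* (0.99, rho = 0.93), and the chemokine gene *Ccl12* (0.99, rho = 0.95). *Ccl12* was at a mean of 6.19 normalized CPM in S395 and 427 in S491 libraries. For *Ms4a4a* they were the chemokine gene *Ccl4* (r = 0.995, rho = 0.98), *Gm29240* (0.99, rho = 0.98), and *Gm4938* (0.99, rho = 1.00). *Gm29240* was at a mean of 0.0580 normalized CPM in S395 and 0.260 in S491 libraries, where 3 counts in a library come to 0.044 to 0.0883, so that its likeness rests on few counts. For *Ms4a6b* they were *Gm5150* (0.99, rho = 1.00), *Mcub* (0.98, rho = 0.98), and *Ube2l6* (0.97, rho = 0.98). For *Ms4a6c* they were *Phf11d*, *Gm10254*, and *Gm12543* (each 0.99, rho = 1.00), and for *Ms4a6d* they were *4930430E12Rik* (0.99, rho = 1.00), *Edf1* (0.99, rho = 0.98), and *Fis1* (0.99, rho = 0.98).

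For *Ms4a7* they were *Rab29* (r = 0.98, rho = 0.90), *Tbcc* (0.98, rho = 0.86), and *Gins2* (0.97, rho = 0.88), each with the higher mean in FCGR4+ libraries. For *Ms4a8a* they were *Gm5063* (0.96, rho = 0.86), *Casp8* (0.94, rho = 0.55), and *Gm19684* (0.94, rho = 0.90). For *Ms4a4b* they were *Gm4883* (0.99, rho = 0.79), *Hist1h4i* (0.96, rho = 0.83), and *Pde3a* (0.95, rho = 0.55), all of them with a mean of at most 3.06 normalized CPM in either prefix.

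Of 13 further family genes, counting the related *Tmem176a* and *Tmem176b*, 8 were tested, 1 passed as lower in FCGR4+ macrophages, and 0 passed as higher. The gene that passed was *Ms4a2*, at 1.01, 0.187, 0, and 0 normalized CPM in FCGR4+ libraries of mice 1 to 4 and at 24.0, 6.30, 2.40, and 2.37 in FCGR4- libraries (log2 difference -5.52 with a standard error of 0.651, adjusted P = 0.0216 in edgeR). Without mouse 1, the log2 difference was -6.57 and no longer passed (adjusted P = 0.102 in edgeR). Of the 8 mast cell and basophil markers tested, 8 passed as lower, and their part in the level of *Ms4a2* was not tested.

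*Ms4a1* (CD20) was lower in 4 of 4 mice, at 0 to 2.80 against 1.38 to 8.56 normalized CPM, and did not pass (log2 difference -2.88, standard error 0.816, adjusted P = 0.265 by edgeR). The summed B cell markers were 180.1 to 333 in FCGR4+ and 409 to 2324 in FCGR4- libraries, mostly *Ighm* (167 to 319 and 400.2 to 2307), while *Cd79b* was at 9.19 to 16.7 and 5.15 to 11.4, with *Pax5* at no more than 5 counts in any library. *Ms4a4d* was likewise lower in 4 of 4 mice (-1.75, standard error 0.440, adjusted P = 0.201 by edgeR). *Ms4a14*, which lies next to *Ms4a7*, had a log2 difference of 0.64 (standard error 0.199) and was higher in 4 of 4 mice, at 16.6 to 51.1 against 13.2 to 29.0 normalized CPM. Its log2 difference was 0.43 without mouse 3, 0.28 in the S395 mice alone, and 0.98 in the S491 mice alone. *Tmem176a* and *Tmem176b*, which lie outside the cluster, had log2 differences of 0.14 (standard error 0.168) and 0.06 (0.168). *Ms4a13* and *Ms4a5* reached at most 1.41 and 2.47 normalized CPM in any library, and *Ms4a3*, *Ms4a10*, *Ms4a12*, *Ms4a15*, and *Ms4a18* had too few counts to be tested.

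Of 11 tested genes in the span that are not among the 8, 0 passed the threshold between the populations in edgeR, where *Ms4a4d* (unadjusted P = 0.00509), *Ms4a1* (0.00922), and *Ms4a14* (0.0140) had an unadjusted P under 0.05. DESeq2 called these 3. Besides the family genes above they are *Gm336*, *Gm6501*, *1700025F22Rik*, *Gm5511*, *BE692007*, and *Gm8369*, with log2 differences between -1.37 (standard error 0.952) for *Gm336* and 0.54 (0.406) for *Gm5511*. Between the prefixes, *BE692007* (-0.50, standard error 0.378) and *Gm8369* (0.55, standard error 0.468), which lie next to or over *Ms4a6c*, did not pass, and *Ms4a4c* had the largest difference of the 19 tested genes of the span.

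**Figure D5:**
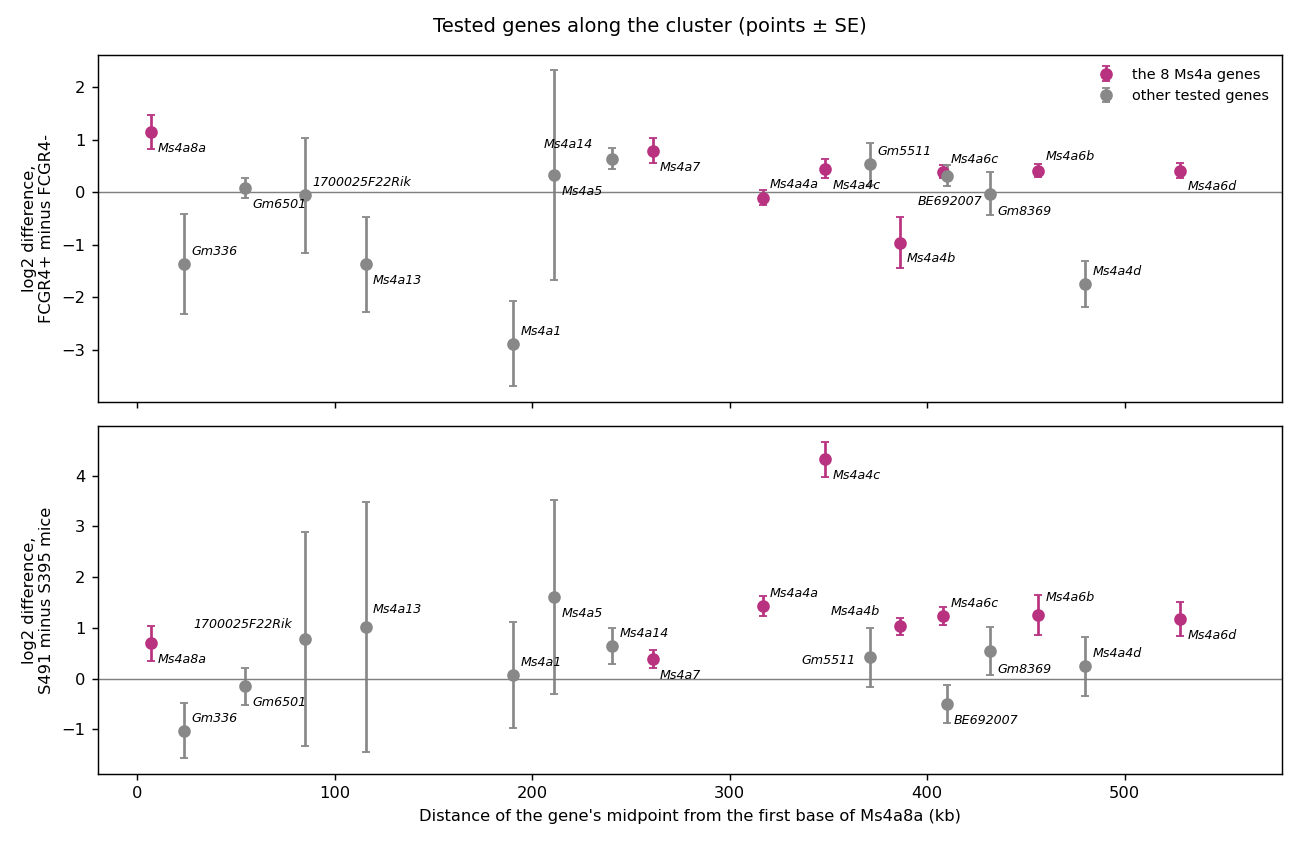
Fitted log2 differences ± standard error of the 19 tested genes along the cluster, against the distance in kb of each gene's midpoint from the first base of *Ms4a8a*, for FCGR4+ minus FCGR4- (top) and for S491 minus S395 mice (bottom). The 8 Ms4a genes are colored and the other 11 are grey, and *Ms4a4c* stands at 4.32 in the lower panel.

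Genes whose proteins are known to act with MS4A proteins were read from the same fit. Of 14, 3 passed the threshold as lower in FCGR4+ macrophages and 0 as higher. *Fcer1a*, the IgE-binding chain that pairs with MS4A2, was at 0.032 to 0.643 normalized CPM in FCGR4+ and at 10.7 to 143.9 in FCGR4- libraries (log2 difference -6.95 with a standard error of 0.515, adjusted P = 0.00600 in edgeR). *Kit*, the stem cell factor receptor of mast cells, differed by -4.95 on the log2 scale (standard error 0.495, adjusted P = 0.0112 by edgeR). *Tnfrsf18* (GITR), which acts with MS4A4B on T cells, differed by -3.51 (standard error 0.598, adjusted P = 0.0666 by edgeR). Leaving out mouse 1, 2, or 3 ended its call, with log2 differences of -3.20, -3.70, and -3.12. *Fcer1a* and *Kit* are themselves mast cell markers.

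Of the partners known from macrophages, none passed in this fit. *Clec7a*, the gene of dectin-1, was at 526 to 788 normalized CPM in FCGR4+ and 413 to 864 in FCGR4- libraries (log2 difference -0.03, standard error 0.172). *Vsig4*, the partner of MS4A6D, was lower in FCGR4+ cells of 4 of 4 mice, at 12.9 to 56.0 against 36.7 to 82.7 (-0.84, standard error 0.193, adjusted P = 0.165 by edgeR), while *Ms4a6d* was higher in 4 of 4. *Vsig4* passed as lower with DESeq2 (adjusted P = 0.00277), with edgeR's newer quasi-likelihood method (0.0721), with no filter on low counts (0.00563), and with at least 10 counts required in every library (0.0848). Its highest adjusted P, 0.928 in edgeR, came from the fit without the replicate block, and with a mouse left out it reached at most 0.374. *Trem2*, whose soluble form is tied to the human MS4A locus, had a log2 difference of 0.45 (standard error 0.226) and was higher in 3 of 4 mice, with 0.69 without mouse 1 and 0.21 without mouse 3. *Fcer1g*, the signaling chain shared by Fc receptors, had one of 0.26 (standard error 0.122).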

How the data were processed

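The deposited values are counts per gene in 8 libraries. According to the study's methods and the file header, the authors mapped read pairs to mm10 with STAR and made counts with featureCounts 1.6.3 on the GENCODE M18 annotation, counting pairs with several mapping places at each, without strand, and leaving pairs on exons of several genes uncounted. The deposited gene length was used for levels per kb. No column was left out (0).

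The 17095 of 54146 genes that reached 10 counts in 4 or more libraries (at least 99.8% of counts) were normalized by TMM (factors 0.937 to 1.11) and tested with edgeR 4.0.16 in R 4.3.3 (quasi-likelihood test with the default settings, Benjamini-Hochberg adjustment, threshold 0.1), with mouse as a block. Standard errors were obtained as the fitted log2 difference over the root of the F statistic. DESeq2 1.42.0 was an alternative. Same-numbered libraries come from 1 mouse, and their deviations from the population means correlated at 0.291 to 0.428, against at most 0.0116 between mice. Libraries of one population were no duplicates (chi-square per degree of freedom at least 83.6).

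The prefix was tested on counts summed per mouse, and as an interaction with population. The labels do not say whether the mice of a prefix shared a cage or day, so P values there measure the spread between these animals. Correlations used log2 normalized CPM with a prior count of 2. Shared words of 50 bases, coding identity and promoters used GENCODE M21 and RefSeq on the same build, with Biopython. In simulated counts for the 17095 genes with 200 changed ones, the paired edgeR fit called 131 genes, 16 of them unchanged, and recovered 79% of 4-fold and 36% of 2-fold changes, and DESeq2 called 250, with 109 unchanged.

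The 8 genes, the other lists (family, partners, cell markers) and the tests were chosen with earlier results of these data known. Named genes are the 8, the tested family genes and genes of the span, the partners past the threshold and 4 others, the 3 genes most like each member, *Fcgr4*, and markers. Partners named only in the list were *Syk*, *Card9*, *Jak2*, *Stat3*, *Tnfaip3*, and *Nlrp3*, and *Tyrobp* is named for a value that stood apart.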

Additional observations from a re-analysis of the deposited data

Results flagged for a closer look

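*Ms4a4b* had a lower level in FCGR4+ than in FCGR4- macrophages of both S395 mice (log2 differences -2.18 and -2.03) and a level that was higher by 0.01 and 0.32 in the S491 mice, where the fit of these mice alone gave 0.14 (standard error 0.197). The fit of the S395 mice alone gave -2.11 (standard error 0.237), which is a description because this contrast was used to choose the gene. The interaction was 2.28 on the log2 scale, which did not pass the threshold in edgeR (adjusted P = 0.303). How much of its counts in the S491 mice comes from *Ms4a4c* was not tested. Opposite signs in the prefixes occurred in 17.0% of all tested genes.

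In each group of 4 values, a value was marked when its gap to the nearest other, divided by the whole range, was above Dixon's critical value for 4 values, which chance gives in about 1 in 20 groups. Of 93 groups examined (members, tested family genes, partners and *Fcgr4*), 3 had such a value, where chance gives 4.7. The log2 difference of *Ms4a6b* between the populations was 0.22 in mouse 1 and 0.47 to 0.49 in the others (gap share 0.905). *Tyrobp*, the signaling adaptor of TREM2, was at 10.26 on the log2 scale in the FCGR4+ library of mouse 1 and at 10.90 to 10.98 in the others (gap share 0.888). *Fcer1a* was at -3.87 in the FCGR4+ library of mouse 3 and at -1.08 to -0.56 in the others (gap share 0.842), but the low value rests on 2 counts, under the floor of 3, so that the gap is not measured.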

How the results depend on the processing

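The median log2 difference of the 8 Ms4a genes between FCGR4+ and FCGR4- macrophages stayed between 0.33 and 0.46 in 13 alternatives (0.36 to 0.45 with a mouse left out), and that of *Fcgr4* between 1.41 and 1.78 (1.43 to 1.68). Single genes varied more: *Ms4a8a* lay between 0.63 and 1.66, *Ms4a7* between 0.36 and 1.21, and *Ms4a4b* between -2.11 and 0.14. The limits are the 2 mice per prefix, the unknown meaning of the prefix, and copies that share sequence. Causes of the changes below were not tested unless given.

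The number of genes called between the populations, 217, was 1024 with DESeq2, 629 with edgeR's newer quasi-likelihood method, 1054 with no filter on low counts, 76 at a threshold of 0.05, 113 in the S395 and 113 in the S491 mice alone, and 84 to 163 with a mouse left out. The count of the 8 genes, 0, was 5 with DESeq2 (*Ms4a6b*, *Ms4a6c*, *Ms4a6d*, *Ms4a7*, *Ms4a8a*), 3 with no filter (*Ms4a4b*, *Ms4a7*, *Ms4a8a*), and 1 in the S395 mice alone (*Ms4a4b*), and 0 with any mouse left out.

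Of the other family genes, 1 in the fit described, 4 passed with DESeq2, 3 with the newer method, 4 with no filter, and 0 in the S491 mice alone or with at least 10 counts required in every library, where *Ms4a2* is not tested. With a mouse left out it was 0 to 1. Of the partners, 3 in the fit described, 4 passed with DESeq2, the newer method, or no filter (*Vsig4* besides), 1 in the S491 mice alone (*Fcer1a*), and 2 to 3 with a mouse left out. With at least 10 counts in every library, 1 passed, which was *Vsig4*, since *Fcer1a*, *Kit*, and *Tnfrsf18* are not tested there.

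Without the replicate block, 48 genes passed instead of 217, 0 of the other family genes passed, and the pairing changed the call of none of the 8 genes.

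The interaction with the prefix, 0 genes in edgeR, gave 977 with DESeq2, 115 with no filter, and 1 with at least 10 counts in every library. Between the prefixes, the number of genes, 28, was 1803 with DESeq2, 9 at a threshold of 0.05, 11 in FCGR4+ and 12 in FCGR4- libraries alone, and 0 with any mouse left out, when 1 mouse stands alone in an arm and is assumed to vary like the others. Of the 8 genes, 1 in the fit described, it was 6 with DESeq2, 0 with library size alone, 0 at a threshold of 0.05, 0 in FCGR4+ libraries alone, and 0 with any mouse left out. The log2 difference of *Ms4a7* between the prefixes turned to -0.10 in FCGR4- libraries alone.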

Other observations

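The remaining marker lists, as summed normalized CPM, were as follows. Macrophage markers were at 29656 to 54106 in FCGR4+ and 22343 to 47435 in FCGR4- libraries, and classical monocyte markers at 774 to 3018 and 754 to 4740. Nonclassical monocyte markers were at 95.1 to 248 and 128 to 247, with 1 called lower and 1 higher in FCGR4+ cells. Neutrophil markers were at 119 to 534 and 386 to 2408 (5 of 7 tested called lower), dendritic cell markers at 7.91 to 16.1 and 45.1 to 97.4 (4 of 8), and fibroblast markers at 114 to 219.5 and 297 to 948 (4 of 8). Endothelial markers were at 5.22 to 14.8 and 9.45 to 11.6, and adipocyte markers at 2553 to 5585 and 1492 to 4585, mostly *Lpl*, at 1427 to 5462, which macrophages express as well. Their part in the levels of the Ms4a genes was not tested.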
